A study of Homo sapiens with 6 samples.

Results

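The FHL proteins and the cysteine-rich proteins (CRPs) are small adaptor proteins made almost wholly of LIM domains, zinc-binding modules that hold other proteins together. The 7 genes described here, FHL1, FHL2, FHL3, FHL5, CSRP1, CSRP2 and CSRP3, were taken by symbol from a table of 35793 genes. RNA was measured in cardiomyocytes grown from WTC11, an established line of human induced pluripotent stem cells. One group of 3 libraries came from unedited WTC11 (wild type), and the other group of 3 came from a WTC11 derivative with a homozygous STK25 knockout made with CRISPR/Cas9. The protein lost is a serine/threonine kinase. The libraries of each genotype are biological replicates taken on day 15 of differentiation, with no treatment. The knockout was represented by 1 line, so an effect of the edit and any other difference between the lines cannot be told apart.

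Many FHL and CRP proteins sit at the sarcomere, the contractile unit of muscle, and also enter the nucleus as cofactors of transcription. FHL1 and FHL2 bind the springy part of titin. FHL2 is known as a heart-enriched adaptor that also anchors metabolic enzymes to the sarcomere. FHL1 is abundant in skeletal muscle, and mutations in it cause muscle disease. CSRP3, or muscle LIM protein, is found at the Z-disc, the edge of the sarcomere. CSRP1 and CSRP2 bind actin-associated proteins such as zyxin and alpha-actinin and are best known from smooth muscle, where they work with serum response factor (SRF). FHL5 is known mainly from testis as a partner of CREM.

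SRF binds a DNA element called the CArG box, and MEF2 factors bind a short A/T-rich element that is common in muscle promoters. Start-site windows from RefSeq (GRCh38.p14), each running from 250 bases before a start to 50 bases after it, were present for 6 of the 7 genes, in 23 windows. Both elements were searched as patterns that equal their own reverse complement, so that a single scan covers both strands. A CArG box was present in 5 of these windows, against 1.29% of all 35116 windows, and a MEF2 site in 2, against 2.99% of all. Both MEF2 matches are 1 site, and 2 of the CArG matches are 1 box, seen in overlapping FHL2 windows. The windows are thus not independent. No window of CSRP1, CSRP2 or FHL3 held either element, and 1 of the 12 FHL1 windows held a CArG box. FHL1 alone has 12 of the windows, so its chance of holding a match is larger than that of FHL3, which has 1.

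The sequences with a CArG box are shown because FHL2 and FHL1 moved in opposite directions and both hold one. Capitals mark the CArG box, and 10 bases are given on each side, 5′ to 3′ on the strand of the gene.
FHL2, chr2:105438595-105438624, minus strand: aatctggagaCCTTAAAAGGcacgtgggag
FHL2, chr2:105399091-105399120, minus strand: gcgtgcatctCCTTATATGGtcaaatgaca
FHL1, chrX:136196911-136196940, plus strand: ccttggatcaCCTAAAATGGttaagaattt
FHL5, chr6:96562377-96562406, plus strand: actgaggataCCTATTATGGattggtttaa
The first FHL2 box begins 85 and 101 bases before a pair of neighbouring start sites, and the second begins 59 bases before a start farther downstream. The FHL1 box begins 126 bases before an internal start site. It and the second FHL2 box lie within exons in GENCODE 29. The FHL5 box begins 187 bases before its start.

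The 250 bases before the outermost FHL2 start follow, at chr2:105438530-105438779 on the minus strand, with the CArG box and the MEF2 site in capitals. They are shown because this start and its close neighbour are the windows, among the 23, that hold both elements.
FHL2 upstream: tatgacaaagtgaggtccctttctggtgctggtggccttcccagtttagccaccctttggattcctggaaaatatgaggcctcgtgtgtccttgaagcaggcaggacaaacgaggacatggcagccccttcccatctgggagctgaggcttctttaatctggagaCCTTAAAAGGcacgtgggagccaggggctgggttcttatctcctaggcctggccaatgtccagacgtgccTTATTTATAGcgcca
These matches describe letters in the reference genome only. The deposited values are gene totals and do not show which start site was used.

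Library depth ran from 22443904 to 53224112 recovered reads. STK25 itself was at 8119 ± 1168 normalized counts in the wild type and 3720 ± 251 in the knockout (SD, n = 3 each), with no overlap, so the labels and the targeted gene pointed the same way. Wild-type replicate 2 and knockout replicate 1 stood apart from the other 4 libraries on the second principal component, which carried 24.1% of the variance. All 10 cardiomyocyte markers, among them TNNT2, MYH6, MYH7 and TTN, were present in every library, with summed levels of 906035 to 953952 normalized counts in the wild type and 1071012 to 1109245 in the knockout. MYOD1, MYF5 and PAX7, 3 of 11 skeletal muscle markers, were at or under 3 reads in every library. Others on that list had reads, and CKM and MYH3 were higher and TNNT3 lower in the knockout, as given below.

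The 7 genes share a family and were selected on the measured normalized counts of these same libraries, with the genotype differences known. The members' differences are therefore given as a description, with standard errors and without p-values. In all, 6 of the 7 averaged 10 or more normalized counts and entered the fit across 15536 genes (limma), and FHL5 did not. In that fit 4 of the 6 passed an adjusted p of 0.05, 1 higher and 3 lower in the knockout, beside 12.8% of all genes tested, 5.97% higher and 6.79% lower. Over all genes that is 927 higher and 1055 lower, or 546 and 1467 when libraries were scaled to equal totals. The same 4 had libraries that did not overlap between the genotypes, beside 33.4% of all genes tested, 16.2% higher and 17.2% lower. Nothing is read from these counts, since the choice of genes used the same comparison.

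FHL1 (ENSG00000022267.16, protein-coding; X, 136146702 to 136211359, plus strand) was the member that rose. Wild-type replicates 1, 2 and 3 held 287, 162 and 489 normalized counts, against 4962, 6099 and 6318 in the knockout. All 3 knockout libraries lay far above the 3 wild-type libraries, and the lowest knockout value was 10.2 times the highest wild-type value. The means were 313 ± 165 and 5793 ± 728 (SD, n = 3 each), an 18.5-fold rise, or a log2 difference of 4.34 with an SE of 0.38. Behind these values stood 190 to 766 reads per wild-type library and 3904 to 7109 per knockout library. FHL1 varied much among wild-type libraries, with a log2 SD of 0.79, against a median of 0.32 for the 11933 genes with a mean of at least 100. In the knockout its SD was 0.19, against a median of 0.36. Gene totals cannot tell a lower number of cells that make a transcript from less transcript per cell, and this holds for every gene below.

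FHL2 (ENSG00000115641.18, protein-coding; chromosome 2, 105357712 to 105438513, minus strand) fell. Its values were 18550, 21318 and 16667 normalized counts in the wild type, against 2053, 1893 and 2246 in the knockout. The lowest wild-type library was still 7.42 times the highest knockout library. The means were 18845 ± 2339 and 2064 ± 177 (SD, n = 3 each), a 9.13-fold fall, or a log2 difference of -3.19 with an SE of 0.18. FHL2 lay at the 98.9 to 99.1 percentile of genes with any read in the wild type and at the 83.3 to 85.4 percentile in the knockout. It was thus still among the better-expressed genes of the knockout cells.

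FHL3 (ENSG00000183386.9, protein-coding; chromosome 1, 37996770 to 38005606, minus strand) is best known from skeletal muscle. It held 643, 774 and 531 normalized counts in the wild type and 737, 516 and 637 in the knockout. The genotypes overlapped, and the log2 difference was -0.04 with an SE of 0.25. FHL5 (ENSG00000112214.10, protein-coding; chromosome 6, 96562548 to 96616636, plus strand) had 0 reads in all 6 libraries. A count of 0 allows up to 3 reads, which is 1.91 to 4.53 normalized counts depending on the library.

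**Figure D1:**
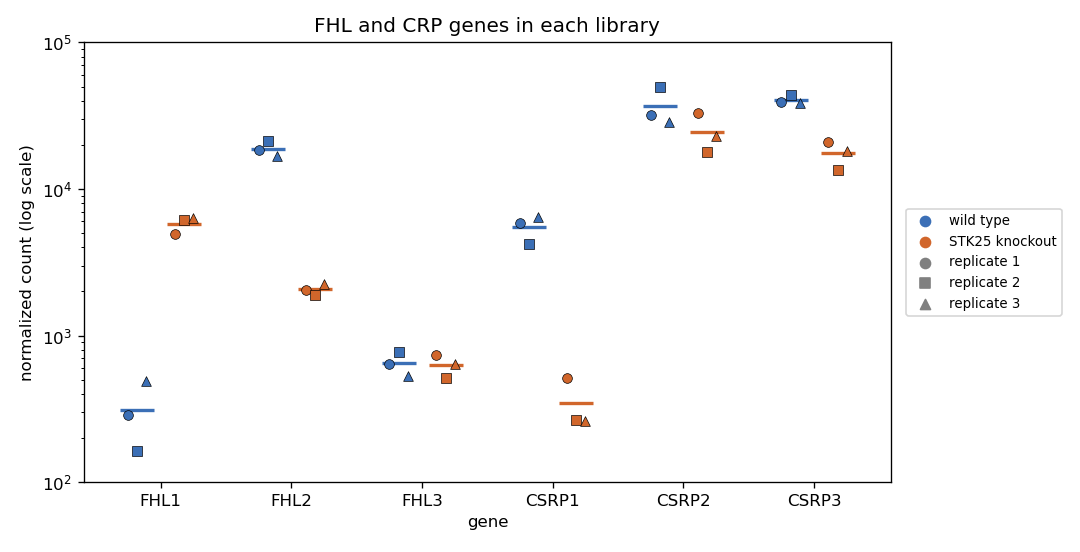
Normalized counts (log axis) of the 6 FHL and CRP genes with reads in each of 3 wild-type (blue) and 3 STK25 knockout (orange) libraries; symbols mark replicate numbers and bars the mean. FHL1 is higher in all knockout libraries, FHL2, CSRP1 and CSRP3 are lower in all of them, and FHL3 and CSRP2 overlap.

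Among the CRP genes, CSRP1 (ENSG00000159176.13, protein-coding; chromosome 1, 201483530 to 201509456, minus strand) fell most. Its values were 5862, 4198 and 6473 normalized counts in the wild type, against 512, 265 and 260 in the knockout. Every knockout library lay below every wild-type library, by 8.19 times at the closest. The means were 5511 ± 1178 and 346 ± 144 (SD, n = 3 each), or 6.28% of the wild-type level, a log2 difference of -4.04 with an SE of 0.32. Knockout replicate 1, which stood apart from the others, held the highest CSRP1 value of its genotype. Without it and wild-type replicate 2 the log2 difference was -4.55.

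CSRP3 (ENSG00000129170.9, protein-coding; chromosome 11, 19182037 to 19210571, minus strand) also fell, by less. It held 39137, 44021 and 38400 normalized counts in the wild type and 20846, 13468 and 18236 in the knockout. The groups did not overlap, and 43.2% of the wild-type mean remained. The log2 difference was -1.23 with an SE of 0.23. The call of CSRP3 over all genes was lost in 3 of the fits that left out 1 library, which were wild-type replicates 1 (-1.25) and 3 (-1.27) and knockout replicate 3 (-1.27). It was also lost with the replicate number as a block, where the difference was again -1.23 and the SE 0.34.

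CSRP2 (ENSG00000175183.9, protein-coding; chromosome 12, 76858715 to 76879060, minus strand) held 32117, 49290 and 28853 normalized counts in the wild type and 32997, 17741 and 23158 in the knockout. The genotypes overlapped, since knockout replicate 1 lay above wild-type replicates 1 and 3. The log2 difference was -0.58 with an SE of 0.31 and did not pass the threshold. The highest CSRP2 value of each genotype came from the libraries that stood apart, wild-type replicate 2 and knockout replicate 1, and the same was true of FHL3 and CSRP3. Without those libraries the CSRP2 difference was -0.59 with an SE of 0.15 and passed.

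Without wild-type replicate 2 and knockout replicate 1 the log2 differences of the others were 4.05 for FHL1, -3.09 for FHL2, -0.03 for FHL3 and -1.31 for CSRP3. Antisense genes overlap the spans of FHL2, CSRP1, CSRP2 and CSRP3, introns included, in GENCODE 29. Overlap between exons was not computed, and whether the counting used strand is not given in the sources used here. Whether reads of the antisense genes entered the members' values is therefore not known.

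Levels of different genes were compared as normalized counts per kilobase of median coding transcript length. In the wild type the order was CSRP2 (44174 ± 13196), CSRP3 (40929 ± 3086), FHL2 (12309 ± 1528), CSRP1 (4796 ± 1025), FHL3 (394 ± 73.7) and FHL1 (134 ± 70.8; SD, n = 3 each). CSRP2 and CSRP3 overlapped, and every other neighbouring pair in that order was separate. In the knockout the order was CSRP2 (29606 ± 9296), CSRP3 (17694 ± 3779), FHL1 (2492 ± 313), FHL2 (1348 ± 116), FHL3 (383 ± 67.3) and CSRP1 (301 ± 125). There FHL3 and CSRP1 overlapped and the other neighbours did not. FHL1 thus moved from below FHL3 to above FHL2, and CSRP1 from above FHL3 to the lowest mean among the genes with reads.

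Within the FHL genes, FHL2 made up 95.3% to 96.3% of the summed level per kilobase in the wild-type libraries and FHL1 0.482% to 1.84%. In the knockout FHL1 made up 54.4% to 62.9%, FHL2 29.6% to 34.2% and FHL3 7.51% to 11.4%. The leading FHL transcript therefore differed between the genotypes in all 6 libraries. These shares are ratios within a library and do not depend on how libraries were scaled. The summed FHL level per kilobase went from 12838 ± 1533 to 4222 ± 327 (SD, n = 3 each), so the FHL1 gained was less than the FHL2 lost.

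Among the CRP genes CSRP3 was above CSRP2 per kilobase in wild-type replicates 1 and 3, and CSRP2 was above CSRP3 in wild-type replicate 2 and in all 3 knockout libraries. This order rests on median transcript lengths of 832 bases for CSRP2 and 990 for CSRP3. The longest transcripts, 943 and 1457 bases, would place CSRP2 above CSRP3 in every library. CSRP2 and CSRP3 together made up nearly all of the CRP level in every library, and CSRP1 went from 3.40% to 7.12% in the wild type to 0.488% to 0.729% in the knockout. CSRP2 made up 43.8% to 55.2% in the wild type and 59.9% to 64.8% in the knockout. The summed CRP level per kilobase was 89899 ± 15264 in the wild type and 47600 ± 13038 in the knockout (SD, n = 3 each).

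**Figure D2:**
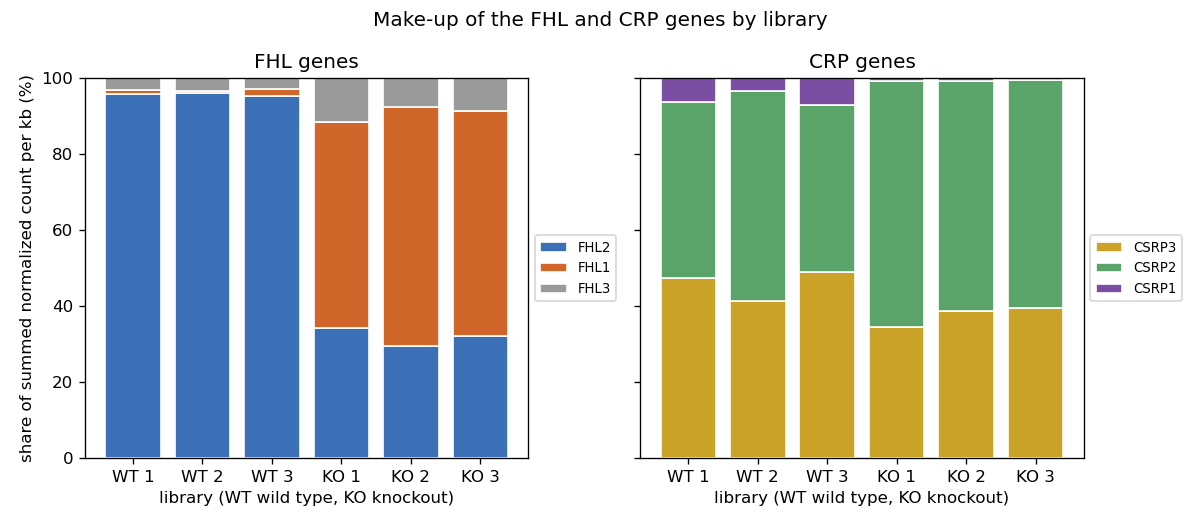
Share of each gene (%) in the summed normalized count per kilobase of the FHL genes (left) and of the CRP genes (right), with 1 bar for each wild-type (WT) and knockout (KO) library. FHL2 fills at least 95.3% of the wild-type FHL bars, whereas FHL1 is the largest part of the knockout bars; CSRP1 nearly vanishes from the CRP bars of the knockout.

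The next comparison asked how the proteins that FHL and CRP proteins bind at the sarcomere and the cell edge differed. This list and the others below, 4 in all, were chosen with earlier results of these data known. Nothing is therefore read from the share of a list that passed. Of 14 structural partners 12 were tested and 0 passed (limma, adjusted p under 0.05), beside 12.8% of all genes. At an unadjusted p under 0.05 there were 5, with edgeR 0 and with DESeq2 4. Over all 15536 genes tested these counts were 4275, 1864 and 3210. The median log2 difference was 0.37, beside 0.0052 for all genes tested. TTN, the giant spring that FHL1 and FHL2 bind, had a difference of 0.66 (SE 0.24, limma adjusted p = 0.124), with 41954 to 61455 normalized counts in the wild type and 70726 to 83722 in the knockout. ACTN2, the Z-disc actinin bound by CSRP3, had 1.16 (SE 0.38, limma adjusted p = 0.0888), and ANKRD1, a stretch-responsive titin-binding protein, had 1.12 (SE 0.34, limma adjusted p = 0.0704). Both were above the wild type in all 3 knockout libraries without passing the threshold. TCAP, the titin cap that binds CSRP3, had -0.08 (SE 0.36, limma adjusted p = 0.915), and the integrin-linked adhesion protein ILK 0.02 (SE 0.20, limma adjusted p = 0.964). Without wild-type replicate 2 and knockout replicate 1, 8 of these genes passed, 6 higher and 2 lower, and without knockout replicate 1 or 2 alone 1 passed. Over all genes 4706 passed without both libraries, 2192 without knockout replicate 1 and 1270 without knockout replicate 2, beside 1982 in the main fit.

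Of 22 signalling and transcription partners 20 were tested and 4 passed, 2 higher and 2 lower (1 and 2 with equal totals), beside 12.8% of all genes, with a median log2 difference of 0.16. ZBTB16, a zinc finger repressor that binds FHL2, fell to 4.66 ± 0.37 normalized counts in the knockout against 140 ± 43.3 in the wild type (SD, n = 3 each). Its log2 difference was -4.60 (SE 0.48, limma adjusted p = 0.00126). SPHK1, a sphingosine kinase bound by FHL2, fell by 1.38 (SE 0.36, limma adjusted p = 0.0460). PPP3CA, a catalytic subunit of calcineurin, rose from a mean of 413 normalized counts to 992 (limma adjusted p = 0.0318), and RBPJ, the Notch effector that a short FHL1 isoform binds, rose by 0.75 (SE 0.17, limma adjusted p = 0.0277). CREM, the partner of FHL5, had 0.48 (SE 0.23, limma adjusted p = 0.234). ZBTB16 was the gene that passed in each of the 6 fits that left out 1 library. When any of wild-type replicates 1 and 3 or knockout replicates 2 and 3 was left out 1 gene passed, and without wild-type replicate 2 there were 2. Over all genes 792, 911, 1270 and 963 passed in the former fits, in that order. Without wild-type replicate 2 it was 1565, beside 1982 in the main fit. SPHK1 (limma adjusted p up to 0.137), PPP3CA (up to 0.130) and RBPJ (up to 0.112) each lost the call in 5 of those 6 fits.

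SRF and the myocardin-related factors that work with it drive actin cytoskeleton and smooth muscle genes, and CRP and FHL proteins act beside them. Of 20 genes of this axis all were tested and 9 passed, 9 higher and 0 lower (45.0%), beside 5.97% higher among all genes. With equal totals 6 passed, all higher. The excess over all genes is not a test of the axis, since earlier results of these data were known when its genes were chosen. The median log2 difference was 0.81. The factors themselves did not pass, though SRF and MRTFA were higher and MYOCD lower in every knockout library than in any wild-type library. SRF had 0.59 (SE 0.20, limma adjusted p = 0.0955), MRTFA 0.66 (SE 0.23, limma adjusted p = 0.103), MRTFB -0.02 (SE 0.25, limma adjusted p = 0.979) and MYOCD, myocardin, -0.63 (SE 0.22, limma adjusted p = 0.107).

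Apart from the factors above, the list held only contractile and cytoskeletal genes, and all those that passed came from these. MYH11, smooth muscle myosin, rose to 8493 ± 1163 normalized counts in the knockout against 254 ± 88.5 in the wild type (SD, n = 3 each). Its log2 difference was 5.12 (SE 0.30, limma adjusted p = 0.000175). ACTA2, smooth muscle actin, rose by 2.98 (SE 0.24, limma adjusted p = 0.000420) and TAGLN, transgelin, by 2.21 (SE 0.25, limma adjusted p = 0.00164). ACTB, cytoplasmic actin, rose by 1.77 (SE 0.30, limma adjusted p = 0.0096) and TPM1, a tropomyosin, by 1.33 (SE 0.35, limma adjusted p = 0.0472). ACTA2 and ACTB have close paralogs, and the counting may have shared reads among them. TPM1 lost the call without each library except knockout replicate 1 (limma adjusted p 0.0673 to 0.215), and ACTB without knockout replicate 3 (limma adjusted p = 0.0516). CSRP1, a gene of smooth muscle, and these genes thus moved in opposite directions. Without wild-type replicate 1 5 genes of the axis passed, without knockout replicate 3 4, and without the libraries that stood apart 14, of which 13 were higher and 1 lower. Over all genes 792, 963 and 4706 passed in these fits.

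Markers of other cell types are given beside these results, and their part in them was not tested. Over all genes tested 12.8% passed, 5.97% higher and 6.79% lower. In this paragraph a marker is said to rise or fall only if it passed. Of the 7 smooth muscle markers, each also in the SRF list, 5 passed, all higher. The summed level of all 7 went from between 81877 and 91702 normalized counts in the wild type to between 494503 and 544423 in the knockout, mostly ACTA2. CNN1 lost the call without each library except knockout replicate 1 (limma adjusted p 0.0545 to 0.107). SMTN lost it without wild-type replicate 1 or 2 or knockout replicate 2 or 3 (limma adjusted p 0.0580 to 0.106). The 11 skeletal muscle markers had 5 tested, of which 2 rose, CKM and MYH3, and 1 fell, TNNT3. The sum of the 11, 25295 to 26201 in the wild type and 107086 to 111204 in the knockout, was nearly all CKM, muscle creatine kinase, which heart muscle also makes. MYH3 went from between 22.1 and 52.3 normalized counts to between 980 and 1903 (limma adjusted p = 0.000449). TNNT3 went from between 42.7 and 95.2 to between 0 and 8.92 (limma adjusted p = 0.0226). MYOD1, MYF5, PAX7 and MYH8 were at or under 3 reads throughout. Among 8 fibroblast markers 3 rose and 1 fell, with sums of 12950 to 26529 and 8205 to 16655. The wild-type sums were mostly COL1A1, which did not pass, and COL1A2, which fell (4237 to 9232 and 132 to 376). COL3A1 (321 to 1128 and 2302 to 6078), DCN (4.47 to 19.6 and 55.9 to 116) and TCF21 (3.02 to 57.1 and 411 to 543) rose. Endothelial sums were 139 to 465 and 367 to 545, with 0 of 3 tested markers passing (limma; CDH5 and ERG at or under 3 reads). Of 4 tested epicardial markers 1 rose, with sums of 99.7 to 184 and 500 to 644. Of 4 tested neural markers 2 rose, with sums of 4559 to 7862 and 7060 to 16874. Those sums were mostly NES (4502 to 7747 and 6481 to 16198), which did not pass (limma adjusted p = 0.340). The neural markers that rose were SOX2 (0 to 3.81 and 103 to 184) and TUBB3 (26.8 to 106 and 317 to 591). Of the 10 cardiomyocyte markers 0 passed as higher and 1 as lower. The latter was PLN, the calcium pump inhibitor, named after its value was seen (log2 difference -0.76, limma adjusted p = 0.0459). MYH6 was lower in every knockout library without passing (-1.14, limma adjusted p = 0.0531). MYH7 (1.42, limma adjusted p = 0.0639), ACTN2, TNNI3 and TTN were higher in every knockout library without passing. The remaining cardiomyocyte markers overlapped between the genotypes.

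Beyond the FHL and CRP genes, 48 other genes with LIM domains were compared, LIM homeobox genes aside. Of these 46 were tested and 12 passed, 8 higher and 4 lower (26.1%), beside 12.8% of all genes, with a median log2 difference of 0.11. When libraries were scaled to equal totals, which moved the median over all genes to -0.28, the split was 6 higher and 6 lower. LIMCH1, which activates nonmuscle myosin, rose to 3297 ± 369 normalized counts in the knockout against 162 ± 19.4 in the wild type (SD, n = 3 each). Its log2 difference was 4.34 (SE 0.21, limma adjusted p = 7.24e-05). LMCD1, a cofactor that restrains GATA6, rose by 2.03 (SE 0.16, limma adjusted p = 0.000420), from between 1410 and 1494 normalized counts to between 5871 and 6105. LMO2, a LIM-only nuclear adaptor, rose by 1.49 (SE 0.32, limma adjusted p = 0.0213), and lost the call without wild-type replicate 1 or 3 or knockout replicate 2 or 3 (limma adjusted p 0.0590 to 0.0887).

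The CRIP genes encode small cysteine-rich LIM proteins related to the CRPs, and CRIP1 and CRIP3 fell. CRIP1 held 7520, 18062 and 7312 normalized counts in the wild type and 1902, 556 and 1006 in the knockout, a log2 difference of -3.29 (SE 0.50, limma adjusted p = 0.00601). CRIP3 fell from 52.9, 69.3 and 29.3 normalized counts to 1.27, 0 and 0 (limma adjusted p = 0.00540), and no fold is given because the knockout libraries held at most 1 read. CRIP2 had 53027 to 79768 in the wild type and 23012 to 42269 in the knockout, without overlap, and did not pass (log2 difference -1.04, SE 0.29, limma adjusted p = 0.0576).

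The remaining genes of this list that passed, and CRIP2 and ZYX, which did not, were named after their values were seen. TRIP6 and PDLIM1, adaptors of focal adhesions and of actin filaments, fell by 1.43 and 1.16. FBLIM1, LIMA1, PDLIM7, LIMS2 and LMO3 rose by 1.43, 1.37, 1.36, 1.06 and 0.94. LIMS2 lost the call without wild-type replicate 1, PDLIM7 without wild-type replicate 1 or 3 or knockout replicate 3, LIMA1 without any of these or knockout replicate 2, and LMO3 whichever library was left out (limma adjusted p 0.0514 to 0.153 over these fits). ZYX, the zyxin that binds CSRP1, had -0.75 (SE 0.22, limma adjusted p = 0.0634) and was lower in all 3 knockout libraries. Without wild-type replicate 1, 7 LIM genes passed, 3 higher and 4 lower, and without both libraries that stood apart 24 passed, 12 in each direction. Over all genes 792 and 4706 passed in these fits.

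**Figure D3:**
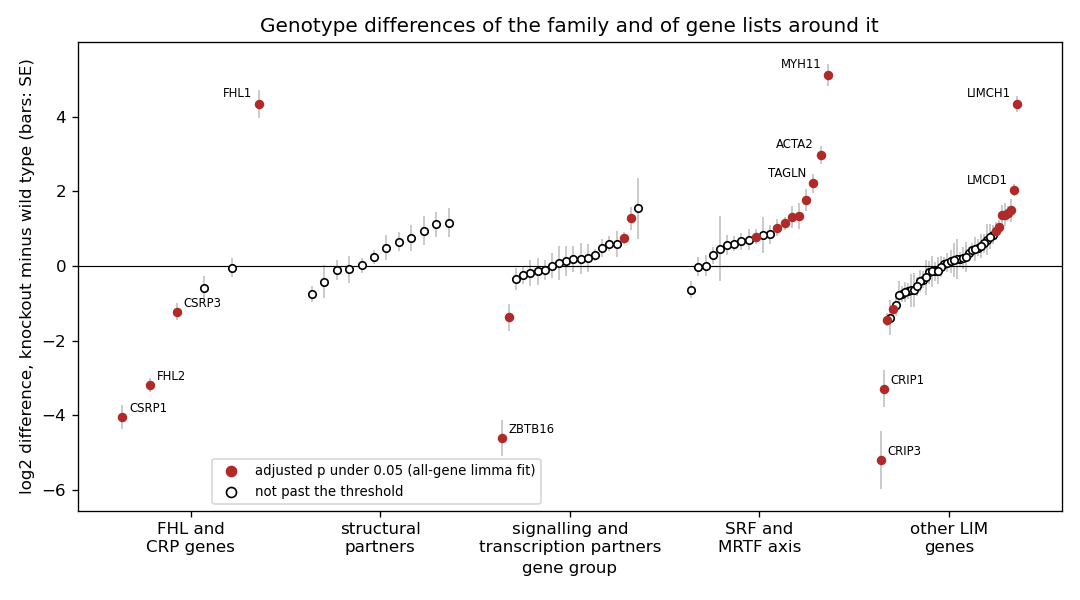
Log2 difference (knockout minus wild type, with SE bars) of each tested gene in the FHL and CRP family and in 4 lists around it; filled red points passed an adjusted p of 0.05 in the limma fit over all genes, open points did not. FHL1 at 4.34 and CSRP1 at -4.04 span the family, none of the structural partners passed, and all 9 genes of the SRF list that passed were higher.

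The genes whose profile over the 6 libraries was most like that of FHL1 and FHL2 were found among 15535 others by Euclidean distance between log2 values, each centred on the gene's own mean. The nearest to FHL1 were FIBIN (distance 0.51), NTRK2 (0.63), A2M (0.72), MYC (0.83) and SLC17A9 (0.86). FIBIN held 67.0 to 145 normalized counts in the wild type and 1328 to 2038 in the knockout. Like FHL1, FIBIN, NTRK2, A2M and MYC were lowest in wild-type replicate 2 and highest, within the wild type, in replicate 3. They were picked for likeness to FHL1 over these same libraries, so the shared order is no separate result. The nearest to FHL2 were STING1 (0.29), FXYD6 (0.32), TMEM163 (0.46), TMEM200C (0.48) and FGF12 (0.51). FXYD6, a regulator of the sodium pump, held 17878 to 22884 in the wild type and 2353 to 2440 in the knockout, close to the level of FHL2 itself before length is considered. STING1 held 780 to 1079 and 113 to 116.

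**Figure D4:**
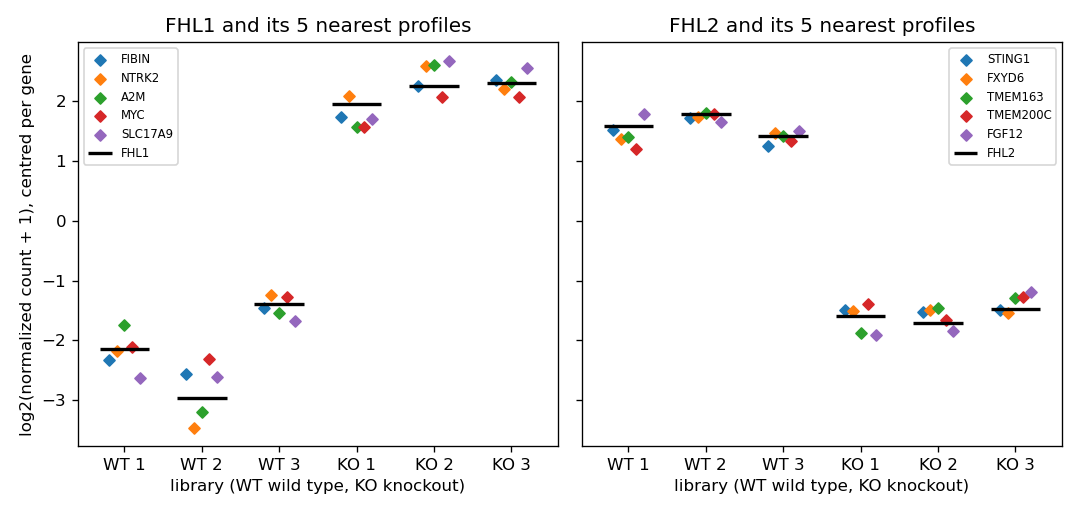
Log2(normalized count + 1), centred per gene, in each wild-type (WT) and knockout (KO) library for FHL1 (left, bars) and FHL2 (right, bars) with the 5 genes nearest to each (diamonds). The genes nearest to FHL2 lie closer to it (distances of 0.29 to 0.51) than those nearest to FHL1 do (0.51 to 0.86).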

How the data were processed

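The deposited table gives 1 signal value per gene symbol and library, which the authors call normalized counts. The submitters' processing notes name bcl2fastq 2.19, kallisto 0.44.0, DESeq2 1.28.1 and GRCh38, without roles; annotation and strand are not given in the sources used here. Per the labels' protocols, total RNA was turned into cDNA by Clontech's Ultra Low v4 chemistry and into libraries by NexteraXT. In every library 100% of the values were whole multiples of its smallest value, within 0.0001, so reads could be recovered as whole numbers; kallisto's counts are estimates that share reads among similar transcripts. The limit that 3 reads set covers counting error alone. Every pair of replicates differed beyond counting noise (20.1 to 388 chi-square units per degree of freedom).

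limma 3.58.1 (R 4.3.3; lmFit, eBayes with a trend) was fitted on log2(value + 1), which understates changes of low genes, keeping genes that averaged 10 or more, with Benjamini-Hochberg adjustment over 15536 genes and a threshold of 0.05. On simulated data with 200 planted changes among 15407 genes, 163 were recovered with 10 false calls. The simulation gave every gene the same spread beyond counting noise and set no library apart. Its counts therefore do not measure how the fit performs on these data. Recovered reads were tested with edgeR 4.0.16 and with DESeq2 1.42.0. The other alternatives were pseudocounts of 0.1 and 10, no filter or an average of 50 or more, equal totals or upper quartiles, a replicate block, and leaving out each library. Leaving out both libraries that stood apart, and the longest transcript length, were added after the data were seen. Gene positions and lengths came from GENCODE 29 (GRCh38), start-site windows from RefSeq. Named genes are the members, STK25, 10 fixed partners, up to 5 passing genes per list by size of change (averaging 50 or more in one genotype), and the 5 nearest profiles each of FHL1 and FHL2. The fixed partners are named whether or not they passed. CRIP2, ZYX, PLN, CKM, MYH3, TNNT3, CNN1, SMTN and 7 further LIM genes fall outside this rule and were named after their values were seen. The same holds for the values given for MYH6, MYH7, TNNI3, NES, SOX2, TUBB3, COL1A1, COL1A2, COL3A1, DCN and TCF21. The members and lists were chosen with earlier results of these data known. Figures used matplotlib 3.10.9.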

Additional observations from a re-analysis of the deposited data

How the results depend on the processing

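FHL1, FHL2 and CSRP1 kept their direction and passed the threshold under all 16 alternatives, and CSRP3 kept its direction under all 16 and passed in 12. Leaving out 1 library in turn gave 3.94 to 4.73 for FHL1, -3.27 to -3.09 for FHL2, -0.18 to 0.09 for FHL3, -4.36 to -3.87 for CSRP1, -0.82 to -0.35 for CSRP2 and -1.37 to -1.05 for CSRP3. Scaling to equal totals lowered the median log2 difference of all genes from 0.0052 to -0.28 and gave -3.47 for FHL2, -0.32 for FHL3, -1.51 for CSRP3 and -0.87 for CSRP2, which then passed. CSRP1 was -4.55 without the libraries that stood apart.

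The rise of the FHL1 share of the FHL level, 57.8 percentage points (1.10% to 58.9%), was 66.5 without division by length, 68.7 with the longest transcripts and 55.8 to 60.1 leaving out 1 library. Genes that passed numbered 1982, and 798 with the replicate block, 3210 with DESeq2, 4706 without the libraries that stood apart and 792 to 2192 leaving out 1 library. Structural partners numbered 1 with no filter, 1 with equal upper quartiles, 4 with DESeq2, 8 without the libraries that stood apart and 0 to 1 leaving out 1 library. With the replicate block 1 signalling partner, 3 SRF genes and 6 other LIM genes passed. Without the libraries that stood apart 14 SRF genes and 24 LIM genes passed. Leaving out 1 library gave 1 to 3 signalling partners, 4 to 9 SRF genes and 7 to 14 LIM genes. Deviations of same-numbered libraries from their genotype means had correlations of -0.23, -0.40 and 0.17 for numbers 1, 2 and 3. The libraries that stood apart, wild-type replicate 2 and knockout replicate 1, had 0.45. Those libraries carry different numbers and weigh on the other correlations, so this check cannot decide whether same-numbered samples were paired. The cause of these changes was not tested. Depth limits FHL5, at 0 reads, and CRIP3, at 0 or 1 read in the knockout.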
